A study of Arabidopsis thaliana with 6 samples.

Results

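The 10 genes described here take up, sense, move, reduce or store iron in Arabidopsis thaliana. They are IRT1, FRO2, FIT, BHLH38, BHLH39, BTS, NAS4, FRO3, FER1 and FER4, chosen by their locus names, and all 10 were found among the 24193 genes of the expression table. Whole seedlings were kept in darkness for 6 days, and RNA was measured in 3 libraries of lon1-1, a mutant of the mitochondrial matrix protease LON1, and in 3 libraries of its wild type Col-0, written wt. The library titles give the genotype, since the genotype field reads Col-0 for every library, the lon1-1 ones too. Nothing in the labels describes the lesion in lon1-1 or whether more than a single line was used, and no treatment with iron is named. The 10 genes were put together with values of these libraries already known, so their lon1-1 and wt levels are given as a description, with no test.

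Plants that depend on reduction to acquire iron acidify the soil around the root, reduce ferric chelates at the surface of the root epidermis and carry the ferrous ion inward. The genes for the reductase and the transporter are switched on in iron shortage by a network of basic helix-loop-helix (bHLH) transcription factors, and iron-binding ubiquitin ligases hold that network back. Iron that is not used at once is kept in vacuoles or in ferritin, a protein shell found mainly in plastids, and mitochondria and plastids both build iron-sulphur clusters.

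Levels are in FPKM (fragments mapped to a gene, scaled by transcript length and by library depth), which is a per-length scale on which genes can be set side by side. LON1 itself (AT5G26860) had 2.67, 2.61 and 2.79 FPKM in lon1-1 A, B and C, against 4.69, 4.70 and 4.69 FPKM in wt A, B and C, so its transcript was lower in each lon1-1 library but still present. FPKM over all genes summed to 690404 to 696877 in lon1-1 and to 719059 to 724780 in wt. Low values move in steps of whole fragments, which put the depth at about 34250000 to 35250000 fragments in lon1-1 and 32500000 to 33250000 in wt, so that 1 FPKM in a transcript of 1 kilobase stood for 26.6 to 28.9 fragments. Of 18308 genes tested across the table with limma, 77% passed at an adjusted p of 0.05. In lon1-1, 44.7% of those tested were higher and 32.3% lower, so a difference between genotypes was common.

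Markers of the tissues that use these genes also differed between genotypes. All 9 root epidermis and root hair markers rose (limma), with summed levels of 125 to 133 FPKM in lon1-1 and 60.8 to 62.9 FPKM in wt. Of 8 markers of root stele and endodermis, 7 were tested, 1 (14.3%) rose and 4 (57.1%) fell. The sum of the 8 was 304 to 324 FPKM in lon1-1 and 458 to 494 FPKM in wt. All 8 shoot and photosynthesis markers fell, with sums of 601 to 620 FPKM in lon1-1 and 3765 to 3845 FPKM in wt. Beside these counts, 44.7% of all tested genes were higher and 32.3% lower. None of the markers was listed at 0 in all 6 libraries. In whole seedlings, fewer cells of a type and less RNA per cell cannot be told apart, and the part of these shifts in the results below was not tested.

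Among the genes of iron entry, the transporter and the reductase stood on opposite sides in lon1-1. IRT1 (AT4G19690), the main carrier of ferrous iron into the root epidermis, had 0.39, 0.14 and 0.18 FPKM in lon1-1 A, B and C, against 2.95, 2.44 and 2.66 FPKM in wt A, B and C. Every lon1-1 library lay far below every wt library, and the mean was 0.237 ± 0.134 FPKM in lon1-1 and 2.68 ± 0.256 FPKM in wt (SD, n = 3 each), 11.3-fold lower in lon1-1. At the estimated depth the lon1-1 values stood for 3 to 17 fragments per library, depending on which of its transcripts is counted, and the wt values for 48 to 127. On the log2(FPKM + 1) scale the difference was -1.58 (SE 0.0945), which the added 1 makes smaller than the ratio of means, -3.50 on the log2 scale.

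FRO2 (AT1G01580), the ferric chelate reductase of the root surface, had 2.47, 2.56 and 2.28 FPKM in lon1-1 A, B and C, against 0.59, 0.71 and 0.66 FPKM in wt A, B and C. All lon1-1 libraries were above all wt libraries, with means of 2.44 ± 0.143 FPKM in lon1-1 and 0.653 ± 0.0603 FPKM in wt (SD, n = 3 each), a ratio of 3.73. FRO2 and IRT1 are both known as targets of FIT and usually rise together in iron-starved roots. Here the FRO2 level was 6.33, 18.3 and 12.7 times the IRT1 level in lon1-1 A, B and C, against 0.20, 0.29 and 0.25 times in wt A, B and C. The root epidermis markers were also higher in lon1-1, and whether that bears on FRO2 or IRT1 was not tested.

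**Figure D1:**
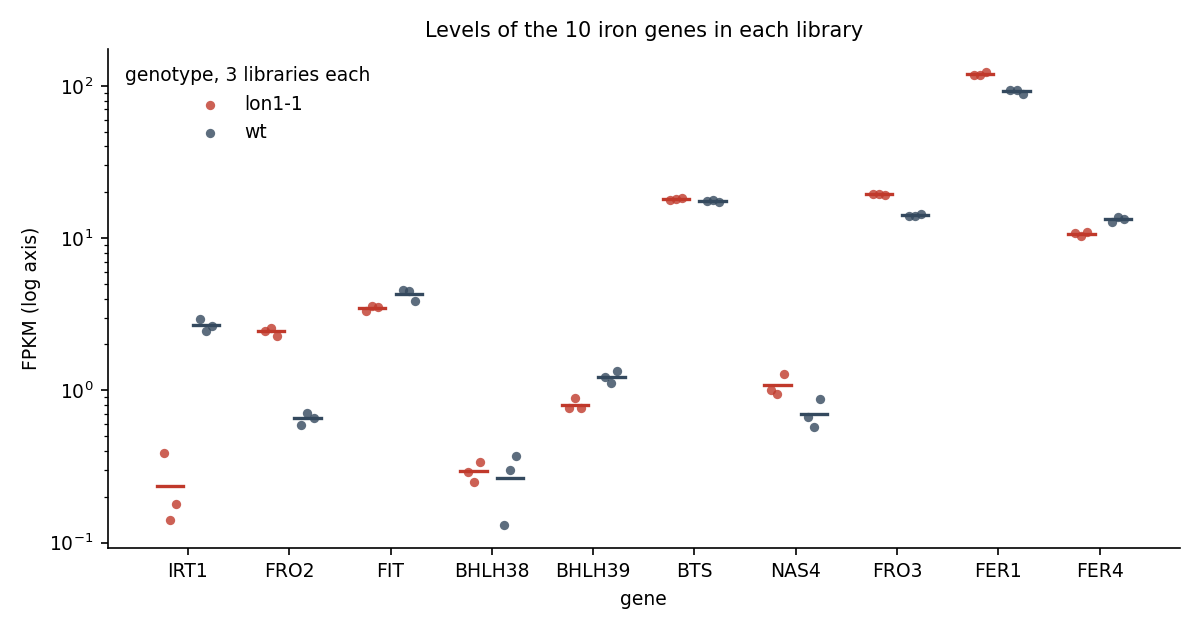
FPKM of each of the 10 iron genes (log axis) in 3 lon1-1 libraries (left of each pair) and 3 wt libraries (right), with points for libraries and a bar for the mean. IRT1 lies far lower and FRO2 higher in lon1-1, BTS is nearly level, and FER1 and FER4 move apart in opposite directions.

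The bHLH factors that drive uptake were low in both genotypes. FIT (AT2G28160, listed as FRU), the factor that IRT1 and FRO2 need for their induction, had 3.30, 3.56 and 3.50 FPKM in lon1-1, against 4.59, 4.46 and 3.85 FPKM in wt. The genotypes did not overlap, but the gap between 3.56 in lon1-1 B and 3.85 in wt C was smaller than the spread among the wt libraries, and the ratio of means was 0.803. BHLH39 (AT3G56980), a partner of FIT, had 0.76, 0.89 and 0.76 FPKM in lon1-1, against 1.23, 1.11 and 1.33 FPKM in wt, again lower in each lon1-1 library, with a ratio of 0.657. BHLH38 (AT3G56970), its neighbour on chromosome 3 with the same role, had 0.29, 0.25 and 0.34 FPKM in lon1-1, against 0.13, 0.30 and 0.37 FPKM in wt. These values overlapped and stood for 8 to 11 fragments per lon1-1 library and 4 to 11 per wt library, so a difference was not detectable at this depth. No stretch of 50 bases is shared between the transcripts of BHLH38, BHLH39, BHLH100 and BHLH101, so fragments of that length need not be divided among them.

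The sensor BTS (AT3G18290), known as BRUTUS, is an iron-binding ubiquitin ligase that marks bHLH factors of the subgroup of ILR3 for breakdown. Its levels were 17.86, 18.17 and 18.38 FPKM in lon1-1, against 17.62, 17.77 and 17.32 FPKM in wt. The libraries did not overlap, yet the ratio of means was only 1.03, and the difference on the log2(FPKM + 1) scale was 0.04 (SE 0.0359) and turned to -0.03 with median-ratio scaling. BTS was therefore nearly level between genotypes while IRT1 and FRO2 differed several-fold.

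The promoters of these regulators are shown because genes of iron shortage are bound by bHLH factors, several of which favour the G-box, a 6-base site read the same on both strands (CACGTG). The windows are the 250 bases before the annotated start of the gene, read from RefSeq's TAIR10.1 assembly and printed along the gene's strand, with G-box matches in capitals. BTS (chr3:6273716-6273965, plus strand) holds 3 matches, first bases at -146, -124 and -70 from the start, BHLH38 (chr3:21085246-21085495, minus strand) holds 1 at -97, and BHLH39 (chr3:21087711-21087960, minus strand) holds none. The broader E-box pattern (CANNTG), of which the G-box is a special case, was found in all 3.
BTS: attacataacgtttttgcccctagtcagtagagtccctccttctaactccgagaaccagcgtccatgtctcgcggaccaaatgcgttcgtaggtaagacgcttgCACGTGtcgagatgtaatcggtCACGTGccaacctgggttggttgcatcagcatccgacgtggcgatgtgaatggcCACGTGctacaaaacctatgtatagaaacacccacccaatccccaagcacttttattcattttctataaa
BHLH38: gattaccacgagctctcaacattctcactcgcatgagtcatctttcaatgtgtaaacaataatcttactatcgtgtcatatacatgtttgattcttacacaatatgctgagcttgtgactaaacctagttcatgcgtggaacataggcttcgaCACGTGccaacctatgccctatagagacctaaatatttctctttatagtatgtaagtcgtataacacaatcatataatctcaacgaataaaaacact
BHLH39: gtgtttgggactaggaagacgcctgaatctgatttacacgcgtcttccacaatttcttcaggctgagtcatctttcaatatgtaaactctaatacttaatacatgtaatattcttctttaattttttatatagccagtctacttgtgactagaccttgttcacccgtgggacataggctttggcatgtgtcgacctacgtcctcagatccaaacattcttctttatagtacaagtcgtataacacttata
Windows were read for 9 of the 10 genes. The G-box was found in 2 of them, BTS and BHLH38, in 9 of 83 other iron genes, and in 6.49% of the windows of 27443 nuclear protein-coding genes. IRT1 and FRO2 hold neither a G-box nor an E-box in this window, while E-boxes occur in 5 of the 9 and in 55.3% of all windows. A match is a string of letters and was not set against any binding data.

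NAS4 (AT1G56430) makes nicotianamine, a chelator that keeps iron soluble inside the plant. It had 1.01, 0.95 and 1.27 FPKM in lon1-1, against 0.67, 0.57 and 0.87 FPKM in wt, higher in each lon1-1 library by a ratio of means of 1.53, at 41 to 57 fragments per lon1-1 library and 24 to 36 per wt library. FRO3 (AT1G23020), a ferric reductase placed in mitochondria, had 19.57, 19.54 and 19.21 FPKM in lon1-1, against 14.02, 14.05 and 14.43 FPKM in wt. The FRO3 groups were tight and well apart, with means of 19.4 ± 0.2 FPKM in lon1-1 and 14.2 ± 0.229 FPKM in wt (SD, n = 3 each), a ratio of 1.37.

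The 2 ferritins differed in opposite directions. FER1 (AT5G01600), the plastid ferritin that iron excess raises, had 117.63, 117.15 and 123.44 FPKM in lon1-1, against 94.08, 94.05 and 88.97 FPKM in wt. FER4 (AT2G40300), which is sent to both plastids and mitochondria, had 10.78, 10.26 and 10.95 FPKM in lon1-1, against 12.73, 13.72 and 13.36 FPKM in wt. Neither gene overlapped between genotypes: the ratio of means was 1.29 for FER1 and 0.804 for FER4. Within a library FER1 stood 10.9, 11.4 and 11.3 times above FER4 in lon1-1 A, B and C, against 7.39, 6.85 and 6.66 times in wt A, B and C. The shoot and photosynthesis markers were lower in lon1-1, and whether that bears on FER1 or FER4 was not tested.

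In order of level, FER1 led in both genotypes. In lon1-1 it was followed by FRO3, BTS, FER4, FIT, FRO2, NAS4, BHLH39, BHLH38 and IRT1, and BHLH38 and IRT1 overlapped. In wt the order was FER1, BTS, FRO3, FER4, FIT, IRT1, BHLH39, NAS4, FRO2 and BHLH38, where NAS4 and FRO2 overlapped. FER1 exceeded 96.3% of all genes in the table in lon1-1 and 95.3% in wt, while IRT1 exceeded 16.6% in lon1-1 and 37.5% in wt.

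Set against each other, the uptake and the ferritin genes did not form 2 opposed blocks. Of the 5 genes of uptake and its drive (IRT1, FRO2, FIT, BHLH38 and BHLH39), 3 were lower and 1 higher in lon1-1 without overlap, and of the 2 ferritins 1 was higher and 1 lower. The log2(FPKM + 1) difference averaged -0.21 over the 5 uptake genes and 0.04 over the 2 ferritins, so the uptake mean lay 0.25 below the ferritin mean (-0.25), and at -0.44 with an added 0.1 in place of 1. The SD of that quantity between libraries of a genotype was 0.0466. It does not measure the spread among genes, which was wide. The uptake mean joins -1.58 for IRT1, 1.06 for FRO2, -0.25 for FIT and -0.30 for BHLH39 with BHLH38, which was not fitted. The ferritin mean joins 0.37 for FER1 and -0.29 for FER4. IRT1 had the largest difference and few fragments in lon1-1. The uptake mean without IRT1 was not computed, but the negative sign of the mean rests on that gene. Among the others, 1.06 for FRO2 is larger than -0.25 for FIT and -0.30 for BHLH39 together in size, and BHLH38 overlapped between genotypes. In all, 9 of the 10 genes did not overlap between genotypes, 5 higher and 4 lower in lon1-1, where 67.7% of all genes in the table and 79.1% of those tested did not overlap. The choice of genes used these levels, so nothing is read from that count. On the filter of the test (1 FPKM in at least 3 libraries), 5 genes passed with both genotypes above it, IRT1, FRO2 and BHLH39 passed through a single genotype, and BHLH38 and NAS4 did not pass.

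The wider iron system was followed in 5 lists of 83 other genes, written from textbook knowledge, 79 of which are in the table and 65 of which could be tested. Of these, 25 rose and 29 fell in lon1-1 (limma, adjusted p threshold 0.05), which is 38.5% and 44.6%, beside 44.7% and 32.3% of all tested genes. The median log2 fold change was -0.01, against 0.08 over all genes tested. Of the 65, 7 reached the filter in a single genotype (BHLH11, FER2, NAS2, YSL1, VIT1, VTL1 and VTL5), of which 1 rose and 6 fell; of the 58 above it in all 6 libraries, 24 rose and 23 fell.

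Of 9 tested genes of root uptake and of the coumarins that roots release to mobilise iron, 7 rose and 2 fell (median log2 fold change 0.26). These are 77.8% and 22.2%, beside 44.7% higher and 32.3% lower over all tested genes. ABCG37 (AT3G53480), an exporter of coumarins, rose to 60.8 ± 0.595 FPKM in lon1-1, against 34.4 ± 0.101 FPKM in wt (SD, n = 3 each), a log2 fold change of 0.80 (SE 0.0291, limma adjusted p = 6.75e-09). IRT2 (AT4G19680), the neighbour of IRT1 and a carrier of the same family, had 7.26, 7.89 and 7.66 FPKM in lon1-1, against 4.46, 4.95 and 5.78 FPKM in wt, and rose by 0.51 (SE 0.0781, limma adjusted p = 0.000191). IRT1 and IRT2 thus lie side by side on chromosome 4 with levels that differ in opposite directions, and their transcripts share no stretch of 50 bases. The proton pump AHA7 (AT3G60330) rose to 6.94 FPKM in lon1-1, against 4.57 FPKM in wt, and MYB10 (AT3G12820), a factor of the iron shortage response, fell to 12.04 FPKM in lon1-1, against 18.15 FPKM in wt (limma adjusted p = 1.18e-05 and 1.24e-05). CYP82C4 (AT4G31940), a coumarin enzyme that iron shortage raises, was listed at 0 in each lon1-1 library and at 0.04, 0.16 and 0.05 FPKM in wt.

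Of 14 other regulators and sensors tested, 6 (42.9%) rose, 5 (35.7%) fell and 3 did not pass (median 0.01), shares near the 44.7% and 32.3% of all tested genes. Where 5 FPKM in 3 libraries was required, fewer genes were tested and 3 fell, while over all genes 4360 rather than 5922 fell. BHLH18 (AT2G22750), BHLH20 (AT2G22770, listed as NAI1) and BHLH25 (AT4G37850), relatives known to promote the breakdown of FIT protein, rose 3.37-fold, 1.80-fold and 1.70-fold, to 5.87, 29.6 and 22.4 FPKM in lon1-1, against 1.74, 16.4 and 13.2 FPKM in wt (limma adjusted p = 4.18e-07, 5.12e-07 and 1e-07). A further relative of that group, BHLH19 (AT2G22760), fell to 1.17 FPKM in lon1-1, against 2.06 FPKM in wt (limma adjusted p = 0.000141). OPT3 (AT4G16370), which loads iron into the phloem and affects how shoots signal iron status to roots, fell to 8.90 ± 0.367 FPKM in lon1-1, against 15.0 ± 0.872 FPKM in wt (SD, n = 3 each; limma adjusted p = 1.29e-06). Several transcripts known for a steep rise in iron shortage were below 1 FPKM in both genotypes. BHLH100 (AT2G41240) had 0.05, 0 and 0.05 FPKM in lon1-1, against 0.10, 0.05 and 0 FPKM in wt. BHLH101 (AT5G04150) had 0.04 FPKM in each lon1-1 library, against 0.18, 0.40 and 0.45 FPKM in wt. The peptide genes IMA1 (AT1G47400) and IMA2 (AT1G47395), which promote uptake, had 0.42 to 0.58 and 0.30 to 0.44 FPKM in lon1-1, against 0.50 to 0.66 and 0.23 to 0.83 FPKM in wt, and IMA3 (AT2G30766) was listed at 0 in every library except wt C, at 0.14 FPKM. None of these 5 genes passed the filter on low values, and BHLH101 was the only 1 of them whose genotypes did not overlap. Its values rest on few fragments, and 67.7% of all genes in the table did not overlap.

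**Figure D2:**
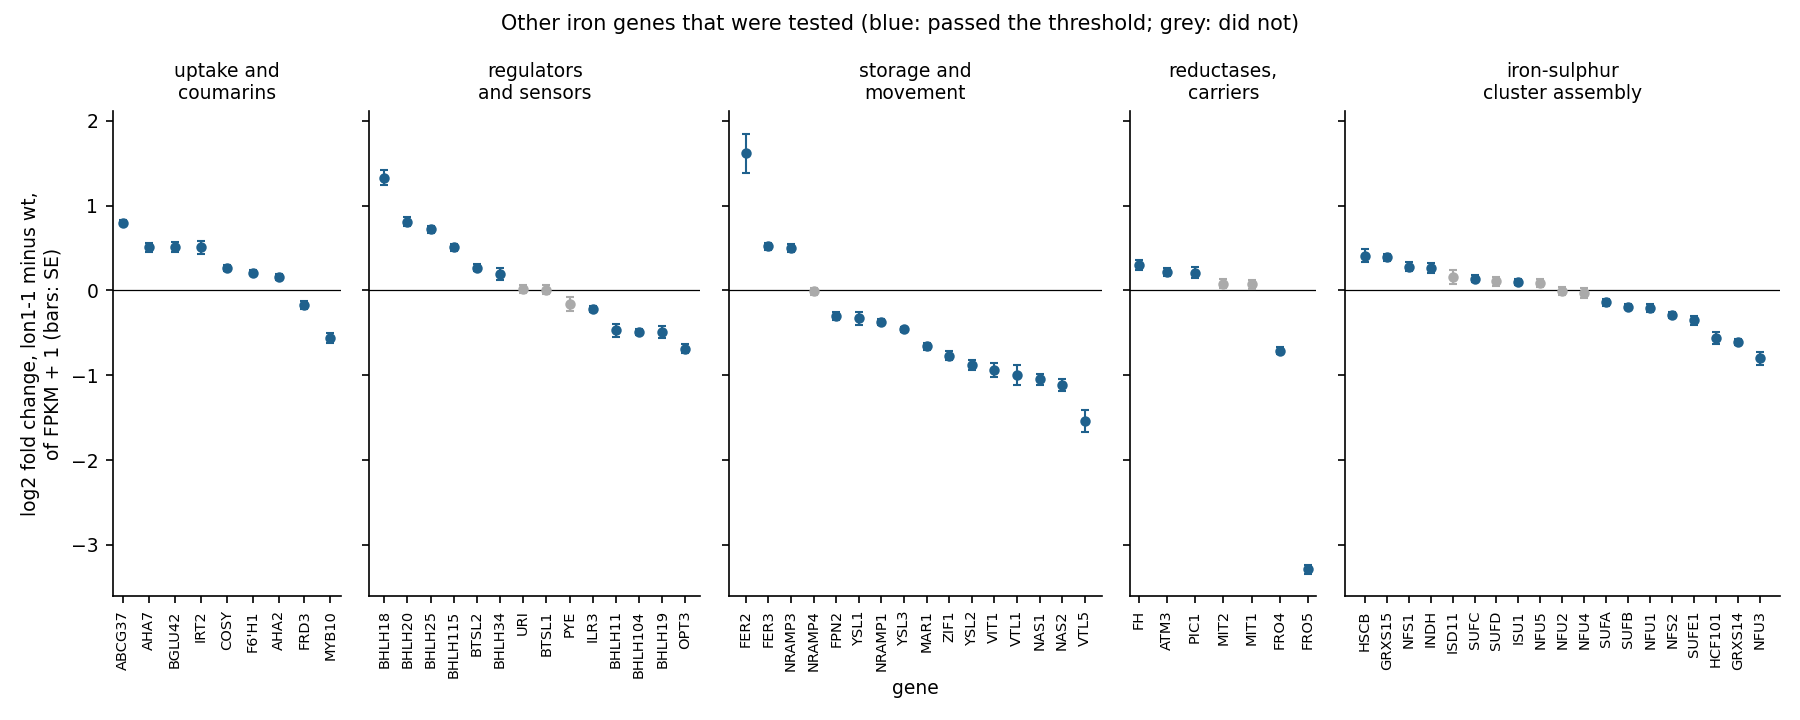
Log2 fold change (lon1-1 minus wt, of FPKM + 1) of the 65 other iron genes that were tested, in 5 lists, with the SE from limma as bars; blue points passed the adjusted p threshold of 0.05 and grey points did not. Storage and movement genes lie mostly below 0, uptake and coumarin genes mostly above it, and FRO5 is the lowest point at -3.29.

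Of 16 storage and movement genes tested, 12 (75%) fell, 3 (18.8%) rose and NRAMP4 did not pass, with a median log2 fold change of -0.56. Over all tested genes 32.3% fell and 44.7% rose. Where 5 FPKM in 3 libraries was required, fewer genes were tested, and 7 storage and movement genes were lower. Over all genes, 4360 rather than 5922 were then lower. NAS2, YSL1, VIT1, VTL1 and VTL5 entered the test only through wt, where they are high, and FER2 only through lon1-1. For these genes the filter favoured the direction they took, so their p-values below carry less weight. Of the 10 genes at 1 FPKM in all 6 libraries, 7 fell and 2 rose. The vacuolar carrier gene VTL5 (AT3G25190) had 0.97, 0.31 and 0.67 FPKM in lon1-1, against 4.10, 3.53 and 3.57 FPKM in wt, a log2 fold change of -1.54 (SE 0.132, limma adjusted p = 2.88e-06) and of -2.46 with an added 0.1 in place of 1. NAS1 (AT5G04950) and NAS2 (AT5G56080) fell to 2.81 and 0.797 FPKM in lon1-1, against 6.86 and 2.91 FPKM in wt (limma adjusted p = 2.27e-07 and 2.96e-07), and with an added 0.1 the NAS2 log2 fold change of -1.12 became -1.75. The nicotianamine synthases therefore differed among themselves, since NAS4 was higher in lon1-1 and NAS3 had 0.30 to 0.41 FPKM in lon1-1 and 0.30 to 0.42 FPKM in wt. The ferritins outside the chosen pair were both higher. FER3 (AT3G56090) had 26.85, 27.32 and 28.07 FPKM in lon1-1, against 19.24, 18.19 and 19.16 FPKM in wt, and rose by 0.52 (SE 0.0381, limma adjusted p = 9.69e-07). FER2 (AT3G11050), the ferritin of seeds, had 4.47, 3.33 and 3.77 FPKM in lon1-1, against 1.04, 0.89 and a listed 0 FPKM in wt A, B and C (log2 fold change 1.62, SE 0.23, limma adjusted p = 0.000109). The 0 in wt C may be a failed estimate, and without that library the FER2 log2 fold change was 1.3, while with an added 0.1 and all libraries it was 3.02 (limma adjusted p = 0.00492).

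Summed over the 4 ferritin genes, the level was 159.7, 158.1 and 166.2 FPKM in lon1-1 and 127.1, 126.8 and 121.5 FPKM in wt, a ratio of means of 1.29. FER1 supplied 73.6% to 74.3% of the sum in lon1-1 and 73.2% to 74.1% in wt, so its share overlapped between genotypes. The FER4 share was 6.6% ± 0.1 in lon1-1 and 10.6% ± 0.529 in wt (SD, n = 3 each), and FER3 supplied 16.8% to 17.3% in lon1-1 and 14.3% to 15.8% in wt. FER4 was the only ferritin of the 4 that was lower in lon1-1.

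The ferric reductase oxidase (FRO) family was spread widely in both directions. FRO2 and FRO3 were higher in lon1-1, and so was FRO1 (AT1G01590), the neighbour of FRO2, at 0.63, 0.71 and 0.70 FPKM in lon1-1, against 0.19, 0.19 and 0.20 FPKM in wt. FRO1 was under 1 FPKM in every library and was not tested. Its values stood for an estimated 52.7 to 60.3 fragments per lon1-1 library and 15.3 to 15.9 per wt library. FRO5 (AT5G23990), a root surface reductase known mainly for copper, had 1.56, 1.66 and 1.66 FPKM in lon1-1, against 24.95, 23.75 and 25.24 FPKM in wt, 15.2-fold lower in lon1-1, with a log2 fold change of -3.29 (SE 0.0495, limma adjusted p = 2.57e-11). FRO4 (AT5G23980), the adjacent gene of the same role, fell less, to 13.1 ± 0.18 FPKM in lon1-1, against 22.0 ± 0.616 FPKM in wt (SD, n = 3 each; limma adjusted p = 1.14e-07). FRO4 and FRO5 share 5.11% and 4.82% of their 50-base stretches, so a small part of their fragments may have been divided between them. FRO6, FRO7 and FRO8 were under 1 FPKM in every library and were not tested, with ratios of 0.296, 0.267 and 0.505 of lon1-1 over wt. FRO6 (a plasma membrane reductase of green tissue) and FRO7 (of chloroplasts) share 15.6% and 14.5% of their stretches.

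**Figure D3:**
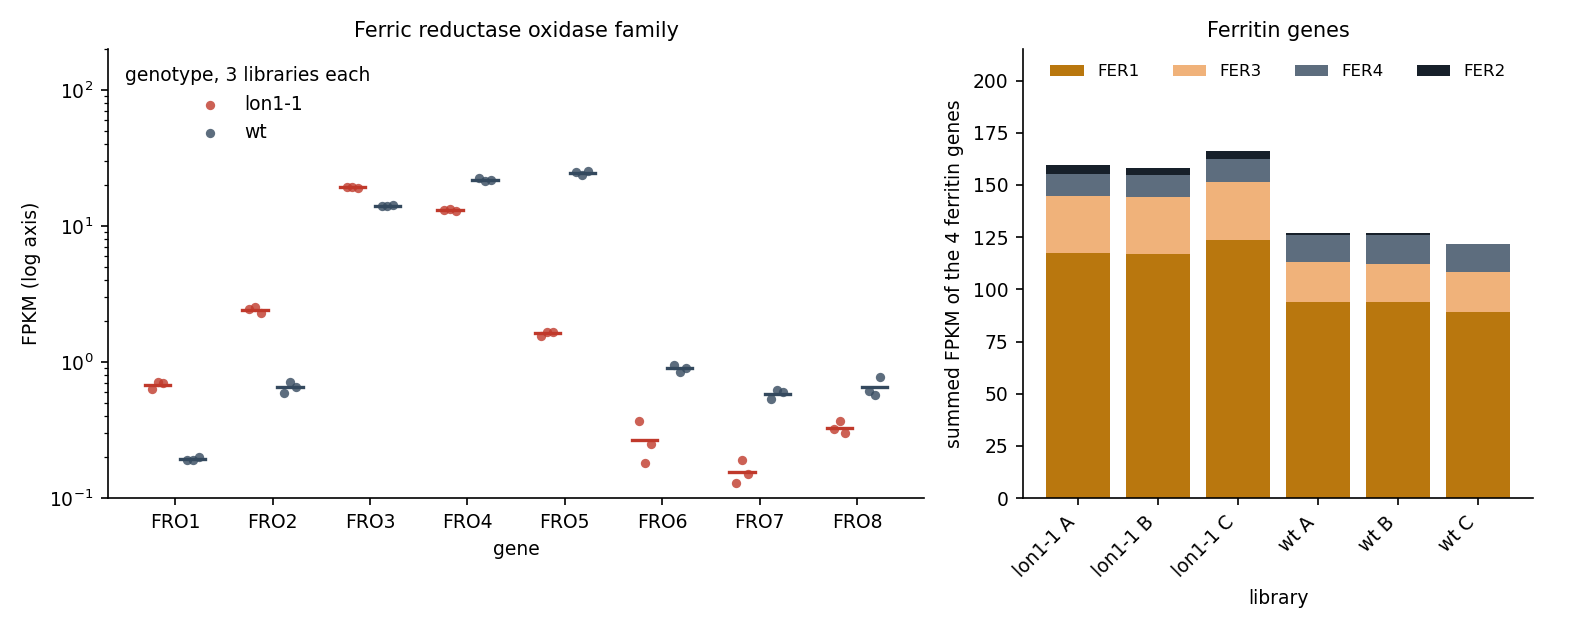
Left, FPKM (log axis) of the 8 FRO genes in 3 lon1-1 libraries (left of each pair) and 3 wt libraries (right), with bars for means. Right, summed FPKM of the 4 ferritin genes in each library, stacked by gene; FRO1, FRO2 and FRO3 are higher and FRO4 to FRO8 lower in lon1-1, and the ferritin sum is higher in lon1-1 in each library.

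Genes of organelle iron use differed in both directions. Among the other reductases and organelle iron carriers, 3 of 7 tested (42.9%) rose and 2 (28.6%) fell, those being FRO4 and FRO5 (median 0.08). These shares are near the 44.7% and 32.3% of all tested genes. With no filter on low values, more genes were tested and 5 of this list were lower. Over all genes, 6770 rather than 5922 were then lower. Frataxin (FH, AT4G03240), a mitochondrial iron protein, rose to 9.06 FPKM in lon1-1, against 7.18 FPKM in wt, and the mitochondrial exporter ATM3 (AT5G58270) rose to 10.9 FPKM in lon1-1, against 9.23 FPKM in wt (limma adjusted p = 0.000739 and 0.00161). The mitochondrial iron importers MIT1 (AT2G30160) and MIT2 (AT1G07030) had 6.50 and 13.4 FPKM in lon1-1, against 6.15 and 12.6 FPKM in wt, and did not pass (limma adjusted p = 0.287 and 0.186). Genes for iron-sulphur cluster assembly had 6 higher, 8 lower and 5 not past the threshold of 19 tested (median -0.01). Split by organelle, a division made after the values were seen, 5 of 8 genes of the mitochondrial machinery rose and none fell, while in plastids 1 of 11 rose and 8 fell, beside 44.7% higher and 32.3% lower over all tested genes. The difference between the organelles was not tested. GRXS14 (AT3G54900), a plastid glutaredoxin, fell to 15.6 FPKM in lon1-1, against 24.3 FPKM in wt. The plastid cluster carriers NFU3 (AT4G25910) and HCF101 (AT3G24430) fell to 1.66 and 6.03 FPKM in lon1-1, against 3.64 and 9.34 FPKM in wt. HSCB (AT5G06410), a mitochondrial cochaperone, rose to 5.70 FPKM in lon1-1, against 4.06 FPKM in wt (limma adjusted p = 2.8e-07, 8.26e-06, 4.68e-05 and 0.000949 in the order GRXS14, NFU3, HCF101 and HSCB).

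By Euclidean distance between log2(FPKM + 1) values centred on each gene's mean over the 6 libraries, the 3 tested genes closest to IRT1 were CaS (AT5G23060, distance 0.04), AT3G02480 (0.09) and AT4G07820 (0.14). Those closest to FER1 were ECA4 (AT1G07670), AT2G43320 and AT1G30690, each at 0.04. Within a distance of 0.5 lay 355 tested genes for IRT1 and 8914 for FER1, so closeness to FER1 was common. With 2 genotypes this measure mainly ranks genes by the size of their lon1-1 difference.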

How the data were processed

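RNA of whole seedlings was measured in 3 lon1-1 and 3 wt libraries, grouped by their titles. Per the labels, ribosomal RNA was removed and strand kept. Per the submitters' processing notes, HISAT2, Bowtie2 and RSEM were used with TAIR10, versions and order not given in the sources used here. The deposited table holds FPKM per gene and library, to 2 decimals, computed by the authors. All 44279 versioned RefSeq transcripts in it were found in the TAIR10.1 annotation, the assembly from which symbols, sequences and positions were read.

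Genotypes were compared by limma 3.58.1 (R 4.3.3) on log2(FPKM + 1), with a mean-variance trend and genotype as the only term. Genes entered the fit if 3 or more libraries reached 1 FPKM. P-values were adjusted by the Benjamini-Hochberg method over all 18308 tested genes. The limma fit was tested on simulated data. Few genes were changed in that simulation, unlike here, so it does not cover differences this common. Fold changes are lon1-1 over wt. The design text calls the replicates independent biological ones, and does not say whether the letters A, B and C pair libraries.

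The table holds no counts. A depth was sought, in steps of 250000 fragments, that turned low values of short genes into whole fragments, with 180 bases taken off each transcript. Of those values 95.5% to 98.9% then lay within 0.15 of a whole number, a share that the search itself raises.

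The genes and lists were chosen with earlier results of these data known. Named beyond the 10 genes and LON1 were up to 4 changed genes per list with the largest absolute change, and FER2, FER3, BHLH100, BHLH101 and IMA1 to IMA3. BHLH19, NAS3, NRAMP4, MIT1, MIT2, CYP82C4 and the remaining FRO genes were added after their values were seen. Expression of S8H, MYB72, ISU2 and ISU3 was not analysed here, though their promoter windows were read, and 1 promoter window is not reported here. Alternatives were a pseudocount of 0.1, other filters, median-ratio scaling, no trend, a replicate block and each library left out.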

Additional observations from a re-analysis of the deposited data

How the results depend on the processing

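With median-ratio scaling the small BTS difference reversed to -0.03 (log2), because that scaling lowers all lon1-1 values relative to wt: the median log2 fold change over tested genes was 0.012 with it and 0.077 without. No other fitted log2 fold change among the 30 fitted genes chosen by rule changed sign under any of the 12 alternatives tried. Median-ratio scaling gave 7168 genes higher and 6815 lower in lon1-1, against 8182 and 5922 without it, so the excess of higher genes depends on scaling. Under it 21 rather than 25 other iron genes were higher and 30 rather than 29 lower. Of the iron-sulphur genes, 4 rather than 6 were higher and 8 stayed lower. With a pseudocount of 0.1 the uptake minus ferritin difference was -0.44, since the added value weighs less on low genes. Without a filter on low values, more genes were tested, and 5 rather than 2 reductases and organelle carriers were lower. With at least 5 FPKM in 3 libraries, fewer genes were tested, and 3 rather than 5 regulators and 7 rather than 12 storage and movement genes were lower. Leaving out any wt library left 8 of those 12, since genes above 1 FPKM in wt alone then miss the filter, as IRT1, BHLH39 and, without a lon1-1 library, FRO2 did. With libraries left out in turn, other iron genes higher numbered 23 to 26 and lower 25 to 29. The uptake minus ferritin difference, with IRT1 kept in each time, then ranged between -0.27 and -0.22. That range does not cover the spread among genes, and the negative sign of the uptake mean rests on IRT1.

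Libraries of the same letter did not deviate together (correlations of 0.06, 0.017 and -0.032 for A, B and C). With the letter as a replicate block, 8145 genes were higher and 5901 lower in lon1-1, against 8182 and 5922 without it. Depth limits BHLH38, BHLH100, BHLH101, the IMA genes and IRT1 in lon1-1, each resting on few fragments.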
